A study of Mus musculus with 30 samples.

Results

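The flavin-containing monooxygenases are enzymes of the endoplasmic reticulum that use NADPH, oxygen and a bound flavin to add an oxygen atom to nitrogen and sulfur atoms of drugs, food compounds and metabolites. The family acts beside the cytochromes P450. In the mouse, Fmo1 is abundant in liver and kidney and also turns hypotaurine into taurine, Fmo2 is best known from the lung, Fmo4 is a low-abundance member whose substrates are poorly known, and Fmo5, found in liver and gut, inserts oxygen next to carbonyl groups and acts on few of the classical substrates. Fmo1, Fmo2, Fmo4 and Fmo5 were followed here in the mouse colon. These are 4 of the 46078 genes counted. They were matched by gene name and gene ID, and were chosen by their measured RNA levels in these same libraries, with Fmo2 put first for its levels in both sexes, both diets and under estradiol. The differences of Fmo2 are therefore given as a description without a test, and tests are given for Fmo1, Fmo4 and Fmo5.

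RNA-seq of colon tissue, which the study's methods give as distal, was available for 30 C57BL/6J mice, 1 library per animal, in 5 groups of 6. The mice of the CD male, CD female, HFD male and HFD female groups were fed a control diet (CD) or a high-fat diet (HFD) for 13 weeks and were injected with vehicle. HFD+E2 males were fed HFD and received 17β-estradiol (E2) at 0.5 mg/kg body weight, in 9 intraperitoneal injections over the last 3 weeks. Per the study's methods the mice were 5 to 6 weeks old when obtained and the females kept their ovaries. No females given E2 were among these libraries. Libraries held between 8667177 and 17243712 counts on genes, with a median of 11530915, and mitochondrial genes took 26.1% to 38.0% of them.

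All 8 colonocyte marker genes were detected in every library, with a summed level of at least 2739 TPM (transcript levels corrected for gene length and scaled to the same total in each library). Markers of stratified squamous epithelium, a tissue found at the anal end, summed to over 50 TPM in 6 libraries, which were HFD females replicates 1, 3, 4 and 5 and HFD males replicates 2 and 4, with 1269 TPM in the highest. In the other 24 libraries they summed to at most 7.36 TPM. Values without those 6 libraries stand beside the results that they moved.

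Fmo2 was the most abundant member in 30 of 30 libraries. It lies at chr1:162874317-162898726 (GRCm38) on the minus strand, and it took 494 to 1749 counts per library. On the TPM scale it ranged from 15.1 to 57.3 with a median of 30.3, and it held a median of 50.4% of the summed TPM of the 4 genes. Counts divided by exonic length gave a median share of 59.9% for Fmo2. The order of the lesser members depended on the scale. Median levels were 11.5 TPM for Fmo4, 9.84 TPM for Fmo1 and 6.44 TPM for Fmo5, whereas CPM (counts scaled to the library total) per exonic kilobase had medians of 3.81 for Fmo4, 2.89 for Fmo5 and 2.46 for Fmo1. Fmo1 and Fmo5 thus changed places between the length corrections, and no order between them is given.

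Fmo4, Fmo1 and Fmo2 are neighbours on the minus strand of chromosome 1, with 15588 bases between Fmo4 and Fmo1, 7706 bases between Fmo1 and Fmo2, and no annotated gene in either gap. Fmo4 spans chr1:162793188-162813972 and Fmo1 spans chr1:162829561-162866610. Fmo6 lies next to Fmo2 at higher coordinates on the same strand, and Fmo9 is on the same chromosome and strand. Fmo5 stands alone at chr3:97628804-97655282 on the plus strand. None of the 4 members overlaps another annotated gene. Fmo6 and Fmo9 were close to absent, as Fmo6 had counts in 5 of 30 libraries with at most 1 in any of them, and Fmo9 had 0 counts in all 30.

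The start regions are shown because sex and E2 were the conditions compared and because the chromosome 1 genes varied together. RefSeq start regions (GRCm38.p6) matched 3 of the 4 members, with separate starts for Fmo2. The 250 bases before each start were searched on both strands for the estrogen response element (GGTCANNNTGACC), its half-site (GGTCA, part of the full element), the androgen and glucocorticoid response element (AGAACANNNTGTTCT), its half-site (AGAACA, part of the full element), the E-box (CACGTG) and the TATA box (TATAAA). Neither full response element and no E-box was found in the 4 windows. The window before the upstream Fmo2 start, at chr1:162898759-162899008 on the minus strand, held none of the motifs and no exon base, and is shown whole.
Fmo2 upstream start: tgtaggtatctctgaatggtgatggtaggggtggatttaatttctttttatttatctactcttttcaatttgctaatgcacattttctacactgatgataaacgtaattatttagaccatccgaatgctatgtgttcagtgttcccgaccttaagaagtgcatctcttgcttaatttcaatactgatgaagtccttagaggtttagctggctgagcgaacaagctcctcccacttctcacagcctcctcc
The window before the downstream Fmo2 start overlaps annotated exons, so only the matches with up to 12 bases on either side are given, with the motif in capitals. They lie at chr1:162898601-162898630 and chr1:162898494-162898513, on the minus strand.
Fmo2 androgen and glucocorticoid half-site: tcgggacgccagAGAACAcaaccagctttg
Fmo2 estrogen half-site: gtttacaatgaaGGTCAtat
The Fmo4 window held the estrogen half-site on the other strand, at chr1:162812608-162812636, and the Fmo5 window held a TATA box on the other strand, at chr3:97628812-97628841. These windows also overlap annotated exons, with 104 of 250 bases for Fmo4 and 215 of 250 for Fmo5. All the matches given, those of Fmo2 included, lie within the gene spans stated above and not before them.
Fmo4 estrogen half-site: tctgacaacttcTGACCttcatccagaaa
Fmo5 TATA box: gcctctgctgtgTTTATAtgaggcgcggct
Among 32851 windows of the same length in the RefSeq table, 35.2% held the estrogen half-site, 16.1% the androgen and glucocorticoid half-site, 12.4% the TATA box and 6.02% the E-box, against 0.0639% for the full estrogen element and 0.00913% for the full androgen and glucocorticoid element. A match of letters is a description of the window and not of binding.

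Fmo2 RNA was lower in the colon of females than in that of males on both diets. On CD, Fmo2 ranged from 15.1 to 30.4 TPM in females (median 19.9) and from 30.8 to 47.0 TPM in males (median 33.7). The TPM values of the sexes did not overlap, but on the log2 CPM scale 1 female, CD females replicate 1 with 96.4 CPM, lay within the male range of 78.2 to 111 CPM, and the other 5 females lay below every male. The log2 fold change (log2FC) of females against males was -0.63 ± 0.13 (SE, n = 6 and 6), which is 1.54-fold higher in males. On HFD, Fmo2 ranged from 19.2 to 26.1 TPM in females (median 23.97) and from 26.4 to 57.3 TPM in males (median 36.0). Here the sexes were apart on both scales, with 53.7 to 65.5 CPM in females and 76.1 to 122 CPM in males, and the log2FC was -0.66 ± 0.11 (SE, n = 6 and 6), or -0.74 without the 6 libraries with squamous epithelium genes. Of all genes tested, 1.45% on CD and 0.217% on HFD had every female below every male in log2 CPM, which serves only as the background for the gene that was put first. On CD Fmo2 was not among these genes, since the sexes overlapped on that scale. The share of genes with the sexes apart in TPM was not counted. In the fit over both diets, with diet as a covariate, the log2FC of Fmo2 was -0.64 ± 0.09 (SE, 24 libraries).

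**Figure D1:**
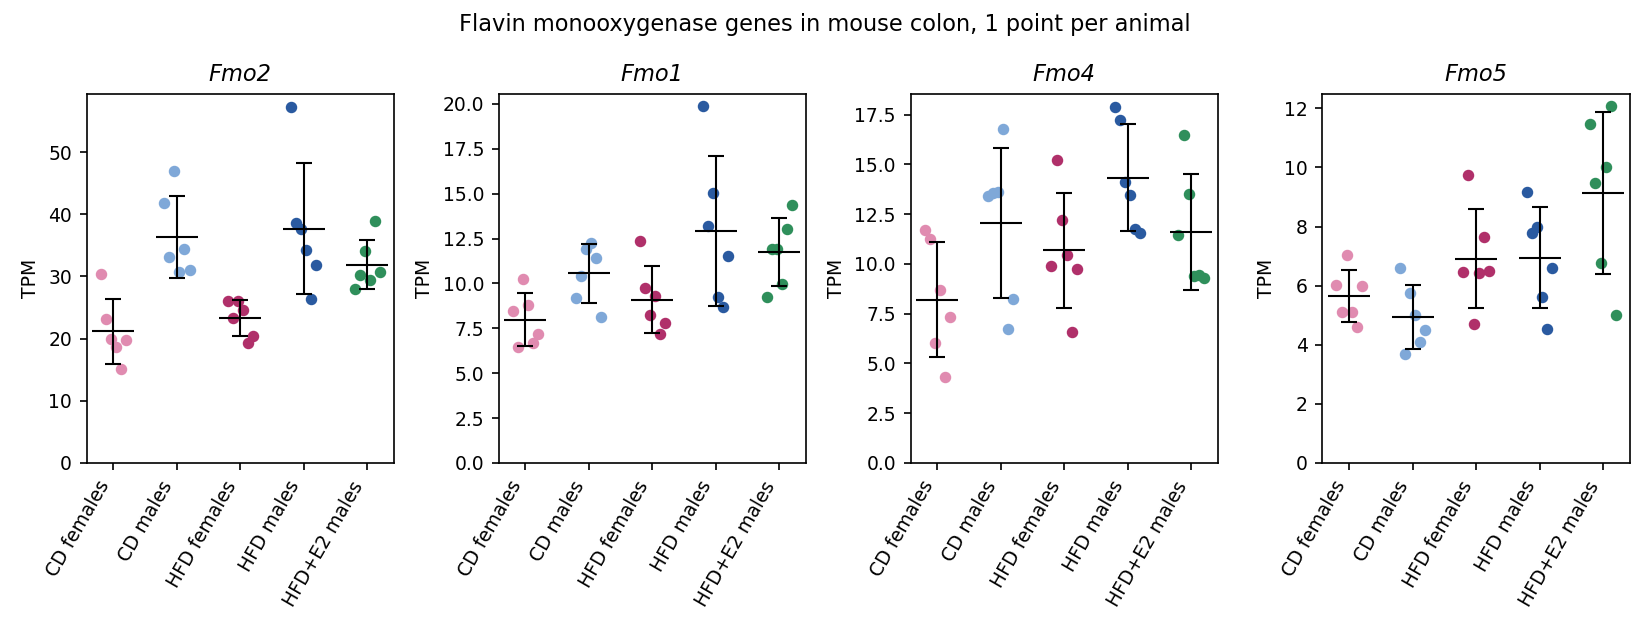
TPM (y axis, from 0) of Fmo2, Fmo1, Fmo4 and Fmo5 in the 5 groups (x axis), with 1 point per animal and black bars for the mean and SD of 6 animals. In TPM every female is below every male of the same diet for Fmo2, though not in log2 CPM on CD. The E2-treated males lie among the other males for Fmo2, and have the highest mean for Fmo5, 9.13 TPM.

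Fmo2 differed little between the diets within each sex. The log2FC of HFD against CD was -0.01 ± 0.12 in females and 0.02 ± 0.13 in males (SE, n = 6 and 6). The values of the diets overlapped in both sexes. HFD females spread less than CD females, with coefficients of variation of 7.11% and 28.5% in CPM and of 12.3% and 24.6% in TPM. CD females replicate 1, at 96.4 CPM, was the highest of the 12 vehicle-treated females, and the other CD females lay at 44.8 to 65.3 CPM. The coefficient without that animal was not computed.

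E2-treated HFD males had Fmo2 levels in the range of the other males. E2-treated males ranged from 28.0 to 38.9 TPM (median 30.5), and HFD females from 19.2 to 26.1 TPM. The share of all genes with those groups apart was not counted. E2-treated males overlapped with vehicle-treated HFD males, and the log2FC of E2 against vehicle was -0.10 ± 0.13 (SE, n = 6 and 6). Beside CD males, which differed from them in diet and treatment, E2-treated males had a mean of 31.9 ± 3.99 TPM against 36.3 ± 6.59 TPM (SD, n = 6 each), and of 91.0 ± 11.2 CPM against 94.9 ± 13.3 CPM. The TPM scale shifts all genes between groups: on log2(TPM + 0.1) the median difference of all genes was -0.16 for E2 against vehicle and -0.11 for females against males on CD, beside 0.00 and 0.01 in edgeR. The corresponding difference of Fmo2 for E2 against vehicle was -0.21 on log2(TPM + 0.1). In order of mean TPM the groups ran from HFD males (37.7 ± 10.6) through CD males and HFD+E2 males to HFD females (23.3 ± 2.87) and CD females (21.2 ± 5.22). The largest step, 8.62 TPM, lay between HFD+E2 males and HFD females. In CPM, CD males stood above HFD males and CD females above HFD females, and the largest step, 28.2 CPM, lay between HFD+E2 males and CD females. The groups were ordered by these same means, so the steps are a description without a test. The share of all genes with such steps was not counted.

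Fmo1 was also lower in females, with a smaller difference and overlapping animals. On CD it ranged from 6.46 to 10.3 TPM in females (median 7.82) and from 8.14 to 12.3 TPM in males (median 10.9). On HFD it ranged from 7.16 to 12.4 TPM in females (median 8.76) and from 8.69 to 19.9 TPM in males (median 12.4), where HFD males replicate 1 was the highest. The log2FC of females against males was -0.44 ± 0.16 on CD by edgeR's quasi-likelihood test, with an adjusted p of 0.175, and -0.54 ± 0.17 on HFD, with an adjusted p of 0.746. An exact permutation test (two-sided, on log2 CPM) gave p = 0.0260 on CD and p = 0.00866 on HFD (n = 6 and 6), where the smallest p possible is 0.00216. The unadjusted p of edgeR was 0.0137 on CD and 0.00477 on HFD. By these, Fmo1 passed the study's threshold for a differentially expressed gene (unadjusted p under 0.05 and log2FC beyond 0.4) on each diet. It did not pass the adjusted threshold of 0.05. On CD its log2FC fell short of the study's threshold without CD females replicate 2 (-0.37), CD females replicate 6 (-0.37), CD males replicate 3 (-0.39) or CD males replicate 4 (-0.395), and with log2(TPM + 1) (-0.37). On HFD the same held without HFD males replicate 1 (-0.37), and the fit without the 6 libraries with squamous epithelium genes gave -0.49 and missed that threshold by its p. Over both diets the difference was -0.49 ± 0.12 with an adjusted p of 0.0219 (edgeR, 24 libraries), and Fmo1 was called lower in females. The call was lost on the log2 TPM scale, with adjusted p of 0.0850 and 0.0855 for pseudocounts of 0.1 and 1 (limma), and without the 6 libraries with squamous epithelium genes, with log2FC -0.46 and adjusted p = 0.0849 (edgeR). The adjusted p over all alternatives ranged from 0.00427 to 0.0855.

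Fmo4 had the same sign in both diets and a smaller size. It ranged from 4.33 to 11.7 TPM in CD females (median 7.99), from 6.74 to 16.8 TPM in CD males (median 13.5), from 6.56 to 15.2 TPM in HFD females (median 10.2) and from 11.6 to 17.9 TPM in HFD males (median 13.8), so that the sexes overlapped on each diet. The log2FC of females against males was -0.35 ± 0.17 on CD, with an adjusted p of 0.356 (edgeR). On HFD it was -0.35 ± 0.12, with an adjusted p of 0.872, and -0.16 without the 6 libraries with squamous epithelium genes, which leaves 2 HFD females and 4 HFD males. The study's threshold was missed in edgeR on both diets, but it was passed on CD without CD females replicate 1 (-0.45), CD males replicate 5 (-0.42) or CD males replicate 6 (-0.41), and on HFD without HFD females replicate 2 (-0.42). It was passed as well with limma on log2(TPM + 0.1), with -0.56 on CD and -0.44 on HFD, and on log2(TPM + 1), with -0.51 and -0.41. The exact permutation test gave p = 0.110 on CD and p = 0.00649 on HFD (n = 6 and 6, two-sided). Over both diets the value was -0.35 ± 0.10 with an adjusted p of 0.0822, which missed the threshold in edgeR. DESeq2 called it, with an adjusted p of 0.0388, as did edgeR without CD females replicate 1 (0.0413), and the adjusted p over all alternatives ranged from 0.0388 to 0.291.

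Fmo5 did not follow the others. It ranged from 4.61 to 7.03 TPM in CD females (median 5.55) and from 3.70 to 6.59 TPM in CD males (median 4.75), and the log2FC of females against males was 0.25 ± 0.14 (edgeR, adjusted p = 0.469). On HFD the values were 4.70 to 9.73 TPM in females (median 6.49) and 4.52 to 9.16 TPM in males (median 7.19), with a log2FC of -0.02 ± 0.15 and a 95% interval of -0.34 to 0.30. That difference has no stable sign, since it was 0.15 without the 6 libraries with squamous epithelium genes.

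Of the 3 tested members, 0 passed the adjusted threshold in either diet alone with edgeR or DESeq2, against 2.92% of all genes on CD and 0.0988% on HFD with edgeR. At an unadjusted p under 0.05 edgeR counted 1 member on CD and 2 on HFD, as did DESeq2, beside 14.8% and 5.09% of all genes in edgeR. The study's threshold was passed by 1 of 3 on each diet, against 9.15% of all genes on CD and 3.09% on HFD. Over both diets edgeR called 1 of 3, against 1.8% of all genes, and DESeq2 called 2 of 3. The interaction of sex and diet was called for 0 of 3 members by either tool, none had an unadjusted p under 0.05, and edgeR called 0 of 15800 genes (0%), with 1066 at an unadjusted p under 0.05 and 7 called by DESeq2. The interaction of Fmo1 was -0.11 with a 95% interval of -0.59 to 0.38, an interval that takes in changes of the sex difference with diet as large as the sex difference itself.

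**Figure D2:**
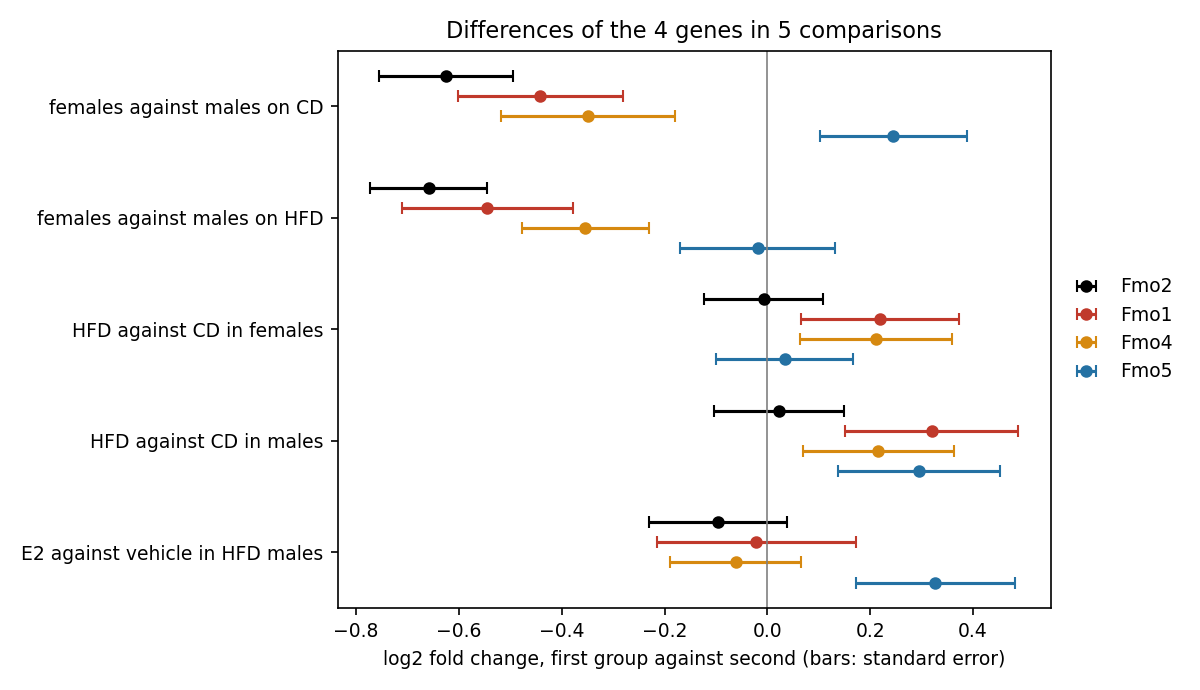
Log2FC of the 4 genes (x axis) in the 5 comparisons of 2 groups (y axis), first group against second, with bars for the standard error of the fit to 12 libraries. Fmo2, Fmo1 and Fmo4 are below 0 for females against males on both diets, and Fmo5 lies at 0.33 for E2 against vehicle.

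No tested member passed a threshold for HFD against CD in edgeR or DESeq2. The log2FC of HFD against CD was 0.22 ± 0.15 in females and 0.32 ± 0.17 in males for Fmo1, 0.21 ± 0.15 and 0.22 ± 0.15 for Fmo4, and 0.03 ± 0.13 and 0.29 ± 0.16 for Fmo5. All 6 values were above 0, and none had an unadjusted p under 0.05 in edgeR or DESeq2, where edgeR counted 5.68% of all genes in females and 6.03% in males. Fmo5 in males passed the study's threshold with limma on log2(TPM + 0.1) and log2(TPM + 1), at 0.47 and 0.41, but not the adjusted threshold (adjusted p = 0.962 and 0.965). On these scales the differences in females were 0.41 and 0.37 for Fmo4 and 0.27 and 0.24 for Fmo5, which passed neither threshold. In females the adjusted threshold was passed by 0 of 3 tested members and by 0.0199% of all genes, and the study's threshold by 0 of 3 and by 3.67% of all genes. In males the adjusted threshold was passed by 0 of 3 and by 0% of all genes with edgeR (0 of 14991, with 904 at an unadjusted p under 0.05 and 26 called by DESeq2), and the study's threshold by 0 of 3 and by 2.9% of all genes. Over both sexes Fmo1 was at 0.27 ± 0.12 (edgeR, unadjusted p = 0.0288, adjusted p = 0.713), Fmo4 at 0.21 ± 0.10 (adjusted p = 0.856) and Fmo5 at 0.16 ± 0.11 (adjusted p = 0.9997), where 0.418% of all genes passed. At an unadjusted p under 0.05 edgeR counted 1 of 3 members, beside 932 of 15800 genes. DESeq2 counted 2 of 3, beside 1388 of 29598 genes, and limma on log2(TPM + 0.1) 2 of 3, beside 913 of 15800. The 95% interval of Fmo1 ran from 0.03 to 0.51. Without the 6 libraries with squamous epithelium genes the differences in females were 0.35 for Fmo1, 0.44 for Fmo4 and 0.19 for Fmo5, again not called, with 2 HFD females left.

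Under E2, Fmo5 had the largest difference of the family. E2-treated HFD males ranged from 5.003 to 12.1 TPM (median 9.74) and vehicle-treated HFD males from 4.52 to 9.16 TPM (median 7.19). The groups overlapped, with 4 of 6 E2-treated males above every vehicle-treated male and HFD+E2 males replicate 6 at the low end. The log2FC was 0.33 ± 0.15 (edgeR, p = 0.0493, adjusted p = 0.488), and the exact two-sided permutation test gave p = 0.0606 (n = 6 and 6). Neither the adjusted nor the study's threshold was passed, the latter because the log2FC lay under 0.4. Without HFD+E2 males replicate 6 the log2FC was 0.41 and the study's threshold was passed. E2-treated males ranged from 9.23 to 14.4 TPM for Fmo1 (median 11.9) and from 9.29 to 16.5 TPM for Fmo4 (median 10.5), and both overlapped with the vehicle-treated males. Fmo1 and Fmo4 had log2FC of -0.02 ± 0.19 and -0.06 ± 0.13, with 95% intervals of -0.43 to 0.38 and -0.33 to 0.21, and -0.10 and -0.32 on log2(TPM + 0.1). Thus 0 of 3 tested members passed the adjusted threshold with edgeR or DESeq2, against 0.00666% of all genes with edgeR, and 0 of 3 passed the study's threshold, against 5.87% of all genes. At an unadjusted p under 0.05 edgeR counted 1 of 3 members, Fmo5, beside 10.2% of all genes. Limma on log2(TPM + 0.1) counted 0 of 3, beside 1719 of 15010 genes. Beside CD males at 4.93 ± 1.08 TPM, E2-treated HFD males had 9.13 ± 2.74 TPM of Fmo5 (SD, n = 6 each), with 5 of 6 above every CD male. In CPM these groups had means of 13.6 ± 2.77 and 21.2 ± 3.84 (SD), and their mean log2 CPM differed by 0.63. They hold the lowest and the highest of the 5 group means of Fmo5. The share of all genes with such a separation was not counted. These groups differ in diet and in treatment, and no test was made between them.

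The chromosome 1 members varied together from animal to animal. Over the 30 libraries, Pearson's r of log2 CPM was 0.82 between Fmo1 and Fmo4 (Spearman's rho 0.81), 0.72 between Fmo1 and Fmo2 (rho 0.63) and 0.62 between Fmo2 and Fmo4 (rho 0.57). With the group means taken out, r was 0.66, 0.50 and 0.35. Without the 2 libraries farthest from the median of the first gene, r over the remaining libraries was 0.78, 0.63 and 0.53. Fmo5 had r of 0.38 with Fmo1, 0.32 with Fmo4 and 0.08 with Fmo2. These values are descriptions, and the libraries share tissue composition and the scaling of counts.

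Among 13845 other genes with a mean of at least 1 CPM, those most like Fmo2 over 30 libraries were Fgf2, a growth factor (r 0.86, rho 0.84), Dennd5a, an activator of Rab proteins (r 0.86, rho 0.83), Rgs5, a regulator of G proteins known from pericytes (r 0.85, rho 0.88), Sult1e1, the estrogen sulfotransferase (r 0.83, rho 0.78), and Ddx3y, an RNA helicase gene of the Y chromosome (r 0.83, rho 0.78). Within groups r was 0.77 for Fgf2, 0.79 for Rgs5 and 0.62 for Dennd5a, against 0.34 for Sult1e1 and 0.41 for Ddx3y. Fmo1 was closest to Fmo4, followed by the peptidase gene Naalad2 (r 0.80, rho 0.76) and the atypical chemokine receptor Ackr4 (r 0.79, rho 0.79). Fmo4 was closest to Fmo1, followed by the receptor phosphatase Ptprg (r 0.74, rho 0.67) and Clec14a, a lectin of endothelial cells (r 0.74, rho 0.71). Fmo5 was closest to Mgst2, a microsomal glutathione transferase (r 0.75, rho 0.73), Dennd2d (r 0.75, rho 0.74) and the phospholipase Pld1 (r 0.73, rho 0.66), and these had within-group r of 0.78, 0.75 and 0.67.

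**Figure D3:**
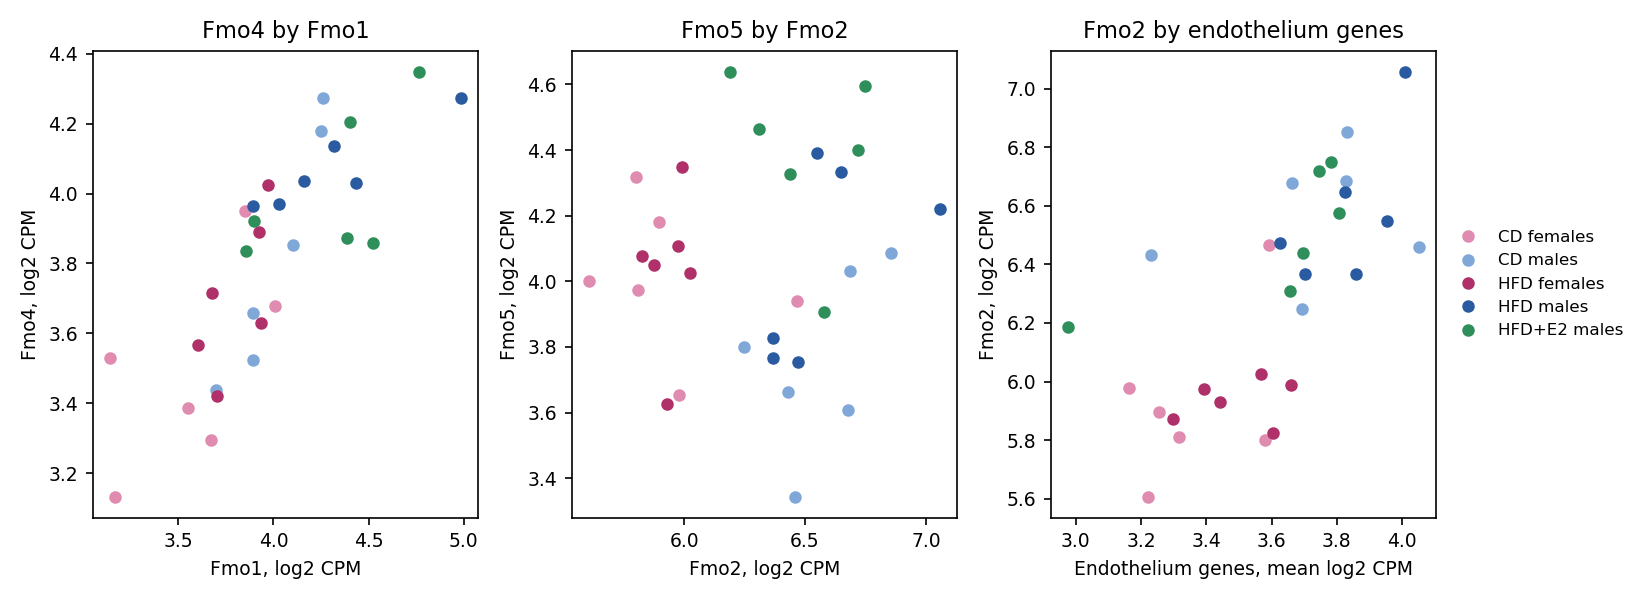
Log2 CPM of Fmo4 against Fmo1 (left), of Fmo5 against Fmo2 (middle), and of Fmo2 against the mean log2 CPM of 4 endothelium genes (right), with 1 point per library coloured by group. Fmo1 and Fmo4 rise together (r 0.82), Fmo2 and Fmo5 do not (r 0.08), and Fmo2 is higher in libraries with higher endothelium genes (r 0.69).

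Markers of other tissues moved with sex in these bulk samples, where fewer cells of a type and less RNA per cell cannot be told apart. The 4 endothelium genes Pecam1, Cdh5, Kdr and Emcn were detected in every library, and their summed level was 13.5 to 19.9 TPM in CD females, 14.1 to 28.4 in CD males, 13.7 to 22.3 in HFD females, 18.1 to 32.3 in HFD males and 13.7 to 22.8 in HFD+E2 males. All 4 had a log2FC below 0 for females against males over both diets, with a median of -0.35 beside 0.01 for all genes. The adjusted threshold was passed by 1 of 4, the junction gene Cdh5 at -0.49 (edgeR, adjusted p = 0.00525), and by 1.8% of all genes. The mean log2 CPM of these genes had r of 0.72 with Fmo1, 0.69 with Fmo2, 0.64 with Fmo4 and -0.01 with Fmo5, and within groups 0.61, 0.49, 0.46 and 0.07.

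All 6 smooth muscle genes were detected in every library, with summed levels of 2416 to 3761 TPM in CD females, 3818 to 6449 in CD males, 2533 to 4445 in HFD females, 3683 to 5874 in HFD males and 3384 to 5570 in HFD+E2 males. On CD 4 of the 6 were called lower in females, beside 2.92% of all genes called. Among them was Actg2, an actin of visceral muscle, at -0.95 (edgeR, adjusted p = 0.00221). On HFD edgeR called 0 of 6, with 1 at an unadjusted p under 0.05, and the median was -0.17. Of all genes, 0.0988% and 5.09% passed these 2 thresholds on HFD. Over both diets edgeR called 1 of 6, Actg2 at -0.75 (adjusted p = 0.0004), beside 1.8% of all genes. All 8 fibroblast genes were detected, with sums of 256 to 557 TPM in CD females, 473 to 815 in CD males, 383 to 788 in HFD females, 474 to 747 in HFD males and 510 to 613 in HFD+E2 males. Col1a2 was called lower in females on CD, as 1 of 8, and on HFD 0 of 8 were called. Over both diets 1 of 8 was called lower in females, Dcn at -0.44 (edgeR, adjusted p = 0.0344). The r of Fmo2 was 0.40 with the smooth muscle genes and 0.37 with the fibroblast genes, and within groups -0.22 and 0.01. With the adipocyte and enteric glia genes it was -0.39 and 0.07, and within groups -0.44 and -0.43. With the hepatocyte genes, of which only 1 of 4 was above 0 in every library of each group, it was -0.50, and within groups 0.12. The hepatocyte list, relevant because liver is rich in these enzymes, had Serpina1a at 0 in every library and summed to 13.6 to 39.0 TPM. Of the tested adipocyte, enteric glia, macrophage, B cell, colonocyte, squamous epithelium and hepatocyte genes, 0 were called for females against males on either diet or over both diets. Over both diets the list medians were 0.31, -0.20, -0.12, 0.78 and -0.07 for the first 5 of these lists and 2.47 for the 7 of 8 squamous epithelium genes that could be tested, of which 1 of 8 could be tested on CD. Of the 4 hepatocyte genes only Ttr, the thyroxine carrier transthyretin, could be tested, at 0.33. The part of these cell types in the differences of the Fmo genes was not tested.

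Few genes of the pathways around the family were called. The enzymes that supply electrons and NADPH (10 genes, all tested, such as the reductase Por) had 0 called in any of the 8 comparisons, and their median log2FC of females against males was -0.05 on CD and 0.01 on HFD, beside 0.01 for all genes on both diets. Of 17 other oxidation and reduction enzymes, 14 could be tested, and Adh1, an alcohol dehydrogenase, was called higher in females on CD (0.45 ± 0.08, edgeR, adjusted p = 0.00615) and over both diets (0.29 ± 0.08, adjusted p = 0.0492), with list medians of -0.05 and -0.14. Of the 7 taurine and cysteine genes, 6 could be tested and 0 were called in any comparison, with medians of 0.11 on CD and -0.05 on HFD for females against males and -0.12 for E2. The 19 genes known to be induced by glucocorticoids were all tested with 0 called in any comparison, and their medians were 0.05 on CD and 0.09 on HFD for females against males. At an unadjusted p under 0.05 the electron, other enzyme, taurine and glucocorticoid lists had 1, 5, 2 and 2 genes for sex on CD and 0, 2, 0 and 1 on HFD, beside 14.8% and 5.09% of all genes. For E2 against vehicle, edgeR called 0 genes of the 4 lists, with 3, 3, 1 and 3 at an unadjusted p under 0.05, and 2 of 10 electron and NADPH genes, 2 of 14 other enzymes and 1 of 19 glucocorticoid-induced genes passed the study's threshold, all lower with E2. These counts are read against 0.00666%, 10.2% and 5.87% of all genes under the adjusted threshold, the unadjusted p and the study's threshold.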

How the data were processed

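Colon RNA of 30 mice was sequenced by the authors (TruSeq stranded total RNA with Ribo-Zero, paired-end reads), processed with bcl2fastq 2.19.1.403 and Trim Galore per the labels, mapped to GRCm38 with STAR, and counted on genes with featureCounts. The deposited counts are whole numbers without normalization for 46078 genes. The deposited TPM values were made by the authors with StringTie, and genes listed more than once were summed here. The annotation release and the strand setting of the counting were not given in the sources used here. Exonic lengths and neighbours were taken from GENCODE M21.

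Groups came from the labelled diet, sex and treatment. Each comparison was fitted to all genes passing filterByExpr with edgeR 4.0.16 in R 4.3.3 (TMM, robust quasi-likelihood F-test, Benjamini-Hochberg adjustment over all genes tested), on the 12 libraries of its groups or on the 24 vehicle-treated ones. Comparisons that use the same group share its libraries. Log2 CPM used a prior count of 2, and the 15 exact permutation tests of Fmo1, Fmo4 and Fmo5 used all 924 splits. The fit was tested on simulated data. No p-value is given for Fmo2, whose differences may be what chose it. The members and gene lists were chosen with earlier results of these data known. The genes named are the members, Fmo6 and Fmo9, list genes past the adjusted threshold (at most 3 per list and comparison), and the genes most like each member by Pearson's r of log2 CPM (5 for Fmo2, 3 for the others). Results that need a withheld item are not reported here. The marker lists also covered adipocytes, enteric glia, macrophages and B cells. Standard errors follow from the F statistic. Alternatives were DESeq2 1.42.0, its size factors, other filters, 1 fit to all libraries, a replicate block, each library left out, limma 3.58.1 on log2(TPM + 0.1) and log2(TPM + 1), and, chosen after seeing the data, leaving out the 6 libraries with squamous epithelium genes. Reads carried no molecular identifiers in the sources used here, and the precision rests on 88 to 414 counts per library for Fmo1, Fmo4 and Fmo5.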

Additional observations from a re-analysis of the deposited data

How the results depend on the processing

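Of 812 values of the 4 genes under other settings, 781 kept their direction and their side of the adjusted threshold (for Fmo2, stayed within 1 SD of the animals, whatever their sign). In the main fit only Fmo1 for sex over both diets passed that threshold among the tested differences. The side of the threshold therefore had little room to change. Crossings of the study's threshold were not counted as changes. For sex on CD with 1 library left out, Fmo1 missed it in 4 of 12 fits and Fmo4 passed it in 3 of 12. For females against males over both diets, Fmo1 went from -0.49 to -0.44 and -0.40 with log2(TPM + 0.1) and log2(TPM + 1) and to -0.46 without the 6 libraries with squamous epithelium genes, and was then not called, and Fmo4 was called with DESeq2 (-0.35). Leaving out 1 library gave -0.54 to -0.41 for Fmo1, called each time, and -0.40 to -0.30 for Fmo4, called once. Changes of sign were seen only in differences that were not called or, for Fmo2, not tested. With 1 library left out, Fmo2 ranged from -0.14 to 0.02 for E2. For HFD against CD it ranged from -0.07 to 0.12 in females and from -0.09 to 0.09 in males. The interaction of Fmo2 ranged from -0.10 to 0.09. The interaction of Fmo4 became 0.0016 without a filter, 0.0069 with at least 10 counts in every library, 0.12 and 0.098 with the TPM scales, 0.19 without the libraries with squamous epithelium genes, and -0.11 to 0.093 with 1 library left out. Fmo5 for females against males on HFD became 0.15 without those libraries and -0.085 to 0.061 with 1 left out. With 1 library left out, Fmo5 for HFD against CD in females ranged from -0.036 to 0.10, Fmo1 for E2 from -0.11 to 0.15, and the interaction of Fmo1 from -0.19 to 0.063. The cause of these changes was not tested. On log2(TPM + 0.1) the values also moved by over 1.5 times for Fmo5 for diet over both sexes (0.16 to 0.37), Fmo4 for diet over both sexes (0.21 to 0.35) and Fmo2 for HFD in females (-0.01 to 0.16), none of them called. The Fmo2 sex difference ranged from -0.79 to -0.56 on CD and from -0.74 to -0.55 on HFD over all settings.

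The replicate numbers mark no shared litter or day in the labels, and for that reason were not taken as a pairing. Same-numbered libraries of compared groups had correlations of their deviations from -0.21 to 0.46, over 0.1 in 18 of 30 pairs. Between CD females and CD males their mean was 0.21, against -0.04 for libraries of other numbers. Between HFD females and HFD males the means were 0.03 and -0.01. What same-numbered libraries share was not tested. With the replicate block, Fmo2 for females against males was -0.63 on CD and Fmo1 over both diets was -0.49, no call of a member changed, and the genes called on CD went from 435 to 941. DESeq2 called 776 genes for sex on CD and 50 on HFD against 435 and 15, 215 for HFD in females against 3, 38 for E2 against 1, 203 for diet over both sexes against 66, and 539 for sex over both diets against 285. Fmo5 for HFD against CD in males, 0.29, had a 95% interval of -0.04 to 0.63, so that a difference of this size could not be told from 0 with 12 libraries.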

Other observations

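In each group of 6 animals, no animal stood apart from its group by Dixon's criterion in any of the 40 combinations of gene, group and scale, with the highest ratio of gap to range at 0.602, under the critical value for 6 values.

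The 3 genes most like Fmo5 all lie, as Fmo5 does, on chromosome 3. Seen after this, 8 of the 50 genes most like Fmo5 lay on chromosome 3, where 5.72% of the genes compared lie. For Fmo1, Fmo2 and Fmo4, on chromosome 1 with 5.92% of the genes compared, the numbers were 7, 7 and 2 of 50. No test was made of these counts.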
